A study of Mus musculus with 10 samples.

Results

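The genes described here make sterols and fatty acids or control that synthesis through the SREBP transcription factors. The 32 listed genes belong to textbook pathways and were chosen with earlier results of these data known. A gene was measured where a probe set (the group of array probes that reads 1 transcript) carried its symbol alone. Where a gene had several, the brightest on average was taken. This gave 29 genes out of 22180 measured in the whole series. Idi1 and Scd2 share their probe sets with other symbols, Acat2 has no probe set named here, and these 3 genes are not analysed here. The 29 genes were sorted by role into 5 of the early mevalonate branch, 11 of the branch from squalene to cholesterol, 6 regulators or transport genes and 7 of the fatty acid branch.

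Cells build cholesterol from acetyl-CoA by way of mevalonate, farnesyl diphosphate, squalene and lanosterol, and build fatty acids from the same acetyl-CoA by carboxylation, chain growth and desaturation. The transcription factors SREBP1 and SREBP2 (genes Srebf1 and Srebf2) are held in the endoplasmic reticulum with their escort Scap by the Insig proteins while sterols are plentiful. When sterols run low the complex moves to the Golgi apparatus, the factors are cut free and they switch on most genes of both pathways. Insig1 is itself a target of SREBP, which closes a feedback loop. In cultured fibroblasts, these genes are known to respond to the sterols supplied by serum.

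The samples were primary embryonic fibroblasts of the mouse (MEFs), cells of connective tissue taken here from the back skin of embryos at E13.5. Total RNA from 5 Zbtb4 knock-out samples and 5 samples of wild-type cells was labelled with biotin and read on 10 Affymetrix arrays, with no treatment named for either group. The protein made from Zbtb4 uses zinc fingers to bind methylated CpG, and the study asked which transcripts depend on it. Which part of Zbtb4 is removed, whether the embryos were littermates, how often the cells were passaged and whether each sample is its own embryo are not given in the labels. The p-values therefore rest on the spread among these arrays, which may be technical in part. Xist ran from 2.99 to 10.28 in the knock-out and from 4.04 to 10.32 in the wild type, with Y-linked genes the other way. Each genotype therefore held samples of both sexes, so its arrays are not all from the same embryo. Values are log2 expression, on which each unit multiplies the signal by 2.

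Array medians ran from 3.89 to 3.93, all 13 measured fibroblast markers lay above every array median on every array, and the number of arrays limits the precision. Zbtb4 was at 5.44, 5.76, 5.04, 5.62 and 5.39 on knock-out arrays 1 to 5 and at 6.06, 6.03, 5.94, 6.23 and 6.11 on wild-type arrays 1 to 5. The groups did not overlap, with a log2 difference of -0.62 (limma adjusted p = 0.628, exact two-sided permutation p = 0.00794, the smallest that 5 against 5 arrays can give).

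Most of the measured genes had lower means in knock-out cells, but none passed the test over all genes. Of the 29 genes, 27 had a lower and 2 a higher mean in the knock-out, with a median log2 difference of -0.16. Of all 22180 genes, 10942 (49.3%) had a lower mean, and their median difference was 0.002. All 29 genes lay above every array median on all arrays. With the dimmest 40% of genes left out, 7249 of 13308 genes had a lower mean, with a median difference of -0.012. With limma, 0 of the 29 genes had an adjusted p under 0.05, as did 0 of all genes (0%), and the smallest adjusted p among the 29 was 0.821. At an unadjusted p under 0.05 there were 5 of 29 genes, or 17.2%, against 5.98% of all genes. The 4 that were lower in the knock-out were Lss, Acly, Elovl6 and Fads2, on a side that held 2.73% of all genes. The gene that was higher was Insig2, on a side that held 3.25%. Of the genes at that level over the whole array, 720 of 1326 were higher in the knock-out, and 570 of 1349 after each array was centred on its median. The arrays of the 2 genotypes overlapped for all 29 genes, while 0.987% of all genes had groups that did not overlap. The 29 genes were listed with earlier results of these data in view, so these counts are a description of the list and carry no test of it.

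**Figure D1:**
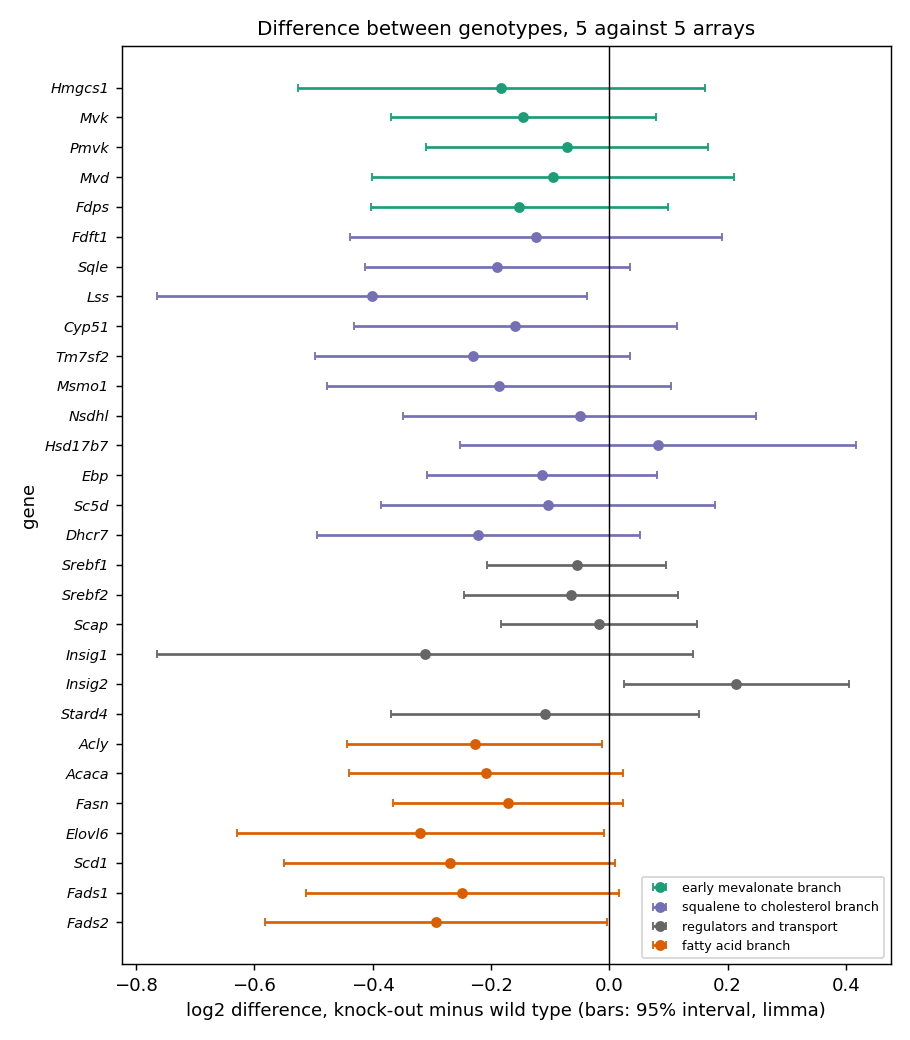
Log2 difference between knock-out and wild-type means for each of the 29 genes (horizontal axis), coloured by branch, with 95% intervals from limma over 5 against 5 arrays. Points lie left of 0 for 27 genes, and the intervals of Lss, Acly, Elovl6, Fads2 and Insig2 leave out 0 before adjustment.

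The start regions of these genes were searched for motifs of factors known to act on the pathway. SREBP binds sterol regulatory elements together with the helper factors NF-Y, which binds CCAAT, and Sp1, which binds GGGCGG. RefSeq windows of 250 bases before the start (build GRCm38.p6) matched 23 of the 29 genes by symbol. The windows below belong to Hmgcs1, a classical SREBP target, Lss, with the largest difference, Insig1, with the widest spread, Fasn of the fatty acid branch, and Insig2, the member whose mean was higher in the knock-out by the most. Each is given 5′ to 3′ on the gene's strand and ends at the base before the start, and capitals mark the matches to the motifs searched.

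Hmgcs1, chr13:119690101-119690350, plus strand: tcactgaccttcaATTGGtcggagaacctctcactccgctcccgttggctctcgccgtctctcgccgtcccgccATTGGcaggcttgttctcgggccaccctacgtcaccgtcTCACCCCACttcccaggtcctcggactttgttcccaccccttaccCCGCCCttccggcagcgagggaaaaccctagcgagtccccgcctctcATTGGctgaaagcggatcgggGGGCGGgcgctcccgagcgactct
Lss, chr10:76531355-76531604, plus strand: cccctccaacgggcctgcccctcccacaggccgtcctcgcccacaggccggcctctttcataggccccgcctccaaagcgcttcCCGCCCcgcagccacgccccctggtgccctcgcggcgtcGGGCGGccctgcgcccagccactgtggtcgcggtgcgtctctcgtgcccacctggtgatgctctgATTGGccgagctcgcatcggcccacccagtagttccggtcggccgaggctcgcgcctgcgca
Insig1, chr5:28071162-28071411, plus strand: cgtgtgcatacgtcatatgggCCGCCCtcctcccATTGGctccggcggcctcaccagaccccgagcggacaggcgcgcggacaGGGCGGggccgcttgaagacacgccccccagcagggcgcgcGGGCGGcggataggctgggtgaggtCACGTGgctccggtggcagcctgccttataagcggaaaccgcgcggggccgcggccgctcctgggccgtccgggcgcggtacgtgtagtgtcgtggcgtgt
Fasn, chr11:120824548-120824797, minus strand: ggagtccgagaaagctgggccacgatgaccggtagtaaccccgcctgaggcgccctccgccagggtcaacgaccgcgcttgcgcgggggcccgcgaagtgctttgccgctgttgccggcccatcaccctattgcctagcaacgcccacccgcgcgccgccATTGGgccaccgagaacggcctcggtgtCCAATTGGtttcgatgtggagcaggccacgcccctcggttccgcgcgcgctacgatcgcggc
Insig2, chr1:121327679-121327928, minus strand, 1 of 3 starts listed: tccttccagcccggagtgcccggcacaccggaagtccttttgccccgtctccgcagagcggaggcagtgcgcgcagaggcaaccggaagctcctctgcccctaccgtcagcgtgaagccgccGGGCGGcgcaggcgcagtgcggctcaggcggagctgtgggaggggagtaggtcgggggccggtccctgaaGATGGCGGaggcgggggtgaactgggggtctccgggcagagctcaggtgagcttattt

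The NF-Y box CCAAT lay in 18 of the 23 genes' windows (78.3%), against 37.5% of the 27025 genes with a window, and the Sp box GGGCGG in 19 (82.6%), against 35.4%. The E-box CACGTG, which SREBP1 can also bind, was found in 5 genes (Dhcr7, Hsd17b7, Insig1, Sc5d and Scap), or 21.7%, against 6.86%. A strict core of the sterol regulatory element, TCACNCCAC, was found in Hmgcs1 alone (4.35% of the 23 genes), 137 bases before its start, against 1.22% of all genes. All motifs were searched on both strands and in every listed start of a gene, with N as any base, and a match may overlap another, as the NF-Y boxes of Fasn do. The letters CNGCCATC, which cover a sequence described for Zbtb4, matched in Ebp and Insig2, 2 of 23 genes (8.7%), against 4.01% of all genes. In Insig2 the match is written GATGGCGG on the gene's strand and lies inside the window shown. It begins 58 bases before the start to which that window belongs, and lies downstream of the other listed starts of Insig2. The NF-Y boxes of Insig2 lie in the window of another start, which is not shown. The windows of the 23 genes held a median of 21 CpG sites, against 6 for all genes, taking the window with the most CpG where a gene has several starts. The 27025 genes were not matched to the 23 in CpG content or expression level. Whether matched genes would have similar shares of these motifs was not tested. A match describes letters only, and binding and methylation were not measured here.

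In the early mevalonate branch, which runs from acetyl-CoA to farnesyl diphosphate, all 5 measured genes had lower knock-out means, with log2 differences from -0.18 to -0.072 and a median of -0.15. None had an unadjusted p under 0.05 (smallest limma adjusted p = 0.854). Hmgcs1, the HMG-CoA synthase gene, was at 9.49, 8.82, 9.06, 9.64 and 9.83 on knock-out arrays 1 to 5 and at 9.63, 9.50, 9.51, 9.56 and 9.55 on wild-type arrays 1 to 5. The wild-type arrays lay within a narrow band, knock-out arrays 1, 2 and 3 were below it, and knock-out arrays 4 and 5 lay above it. The means were 9.37 ± 0.42 and 9.55 ± 0.05 (SD, n = 5 each), with a difference of -0.18 and a 95% interval from -0.53 to 0.16.

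Mvk, the mevalonate kinase gene, was at 6.30, 6.17, 6.32, 6.57 and 6.68 in the knock-out and at 6.56, 6.59, 6.37, 6.55 and 6.69 in the wild type, so that knock-out arrays 1, 2 and 3 were below every wild-type array and arrays 4 and 5 within their range. Its difference was -0.15 ± 0.10 (SE). Fdps, which makes farnesyl diphosphate, was at 9.81, 9.16, 9.61, 9.79 and 9.78 in the knock-out and at 9.71, 9.75, 9.81, 9.89 and 9.76 in the wild type. Here knock-out arrays 2 and 3 alone were below the wild type, array 2 by far the most, and the difference was -0.15 ± 0.12 (SE). Pmvk and Mvd, the next kinase and the decarboxylase of the branch, differed by -0.072 and -0.095.

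In the branch from squalene to cholesterol, 10 of 11 genes had a lower knock-out mean, with a median log2 difference of -0.16 and a range from -0.40 to 0.082. Lss, whose enzyme closes squalene epoxide into lanosterol, had the largest difference of all 29 genes. It was at 6.91, 6.21, 6.63, 7.15 and 7.23 on the knock-out arrays and at 7.18, 7.12, 7.32, 7.06 and 7.45 on the wild-type arrays. Every knock-out array was below the wild-type mean, arrays 1, 2 and 3 were below every wild-type array, and arrays 4 and 5 were within the wild-type range. The difference was -0.40 with a 95% interval from -0.76 to -0.038, or a 1.32-fold lower signal, but it did not pass (limma adjusted p = 0.821, exact two-sided permutation p = 0.0714).

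Tm7sf2, a sterol C14 reductase gene, was at 6.59, 6.38, 5.95, 6.60 and 6.57 in the knock-out and at 6.84, 6.74, 6.56, 6.59 and 6.53 in the wild type. Knock-out array 3 was its lowest array, as it was for Sqle and Mvd, and it differed by -0.23 ± 0.12 (SE; limma adjusted p = 0.84). Sqle, the squalene epoxidase gene and a rate-limiting step of the branch, was at 8.62, 8.56, 8.38, 8.80 and 8.97 in the knock-out and at 8.94, 8.73, 8.85, 8.87 and 8.87 in the wild type. Its difference was -0.19 ± 0.10 (SE), with knock-out arrays 1, 2 and 3 below every wild-type array and array 5 above them all.

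Of the remaining 8 genes of this branch, 7 had lower means. Fdft1, the squalene synthase gene, differed by -0.12, Cyp51, the lanosterol demethylase gene, by -0.16 and Msmo1, the C4-methyl oxidase gene, by -0.19. Dhcr7, which makes cholesterol from 7-dehydrocholesterol, differed by -0.22 and Sc5d, the desaturase before it, by -0.10. Hsd17b7, the ketosteroid reductase gene of sterol C4 demethylation, was the exception with a higher mean, by 0.082, and its sign turned when knock-out array 4 (-0.019) or 5 (-0.013) was left out. Nsdhl and Ebp, the genes of this set that lie on the X chromosome, differed by -0.050 and -0.11, and by -0.048 and -0.11 when the mean Y-linked signal was added as a covariate.

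Among the regulators, the genes of the SREBP factors and their escort differed little, and the Insig genes went opposite ways. Srebf1 was at 6.51, 6.30, 6.35, 6.43 and 6.40 in the knock-out and at 6.37, 6.44, 6.53, 6.44 and 6.50 in the wild type, a difference of -0.055 with a 95% interval from -0.21 to 0.097. Srebf2 was at 8.95, 8.56, 8.88, 8.88 and 8.94 in the knock-out and at 8.90, 8.96, 8.87, 8.89 and 8.91 in the wild type, a difference of -0.065 with an interval from -0.25 to 0.12. Apart from knock-out array 2, the lowest for both, the Srebf2 arrays lay between 8.87 and 8.96. Scap was at 8.17, 7.99, 8.08, 8.17 and 8.02 in the knock-out and at 7.98, 8.25, 8.05, 8.06 and 8.17 in the wild type, with overlapping groups, and differed by -0.018, while its further probe set differed by -0.11. The intervals of Srebf1 and Srebf2 do not reach a difference of the size seen for Lss, the largest of the 29 genes. Both intervals hold the median difference of the 29 genes, -0.16. Whether the genes of these factors changed less than the other genes was not tested.

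Insig1, the sterol-responsive Insig gene, had the widest spread of the 29 genes. It was at 9.02, 8.25, 8.62, 9.49 and 9.59 on knock-out arrays 1 to 5 and at 9.40, 9.24, 9.29, 9.19 and 9.41 on wild-type arrays 1 to 5. Knock-out arrays 1, 2 and 3 were below every wild-type array and arrays 4 and 5 above every one. The means were 8.99 ± 0.565 and 9.305 ± 0.099 (SD, n = 5 each), and the difference of -0.31 had a 95% interval from -0.765 to 0.14 (limma adjusted p = 0.848).

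Insig2, which encodes the other Insig protein and is not driven by SREBP in the same way, was at 6.45, 6.12, 6.43, 6.34 and 6.23 in the knock-out and at 6.04, 5.98, 6.12, 6.08 and 6.29 in the wild type. All 5 knock-out arrays were above the wild-type mean, and only wild-type array 5 reached into the knock-out range. The difference was 0.21 with a 95% interval from 0.025 to 0.405, or a 1.16-fold higher signal (limma adjusted p = 0.821, exact two-sided permutation p = 0.0397). Without wild-type array 5 the groups of Insig2 did not overlap, though knock-out array 2 (6.122) and wild-type array 3 (6.12) were almost level, and 2.49% of all genes then had groups without overlap. Whether the difference of Insig2 departs from that of Insig1 was not tested. Stard4, a sterol transport protein gene, was at 6.43, 6.26, 6.37, 6.17 and 6.54 in the knock-out and at 6.72, 6.68, 6.46, 6.39 and 6.07 in the wild type. It differed by -0.11, and its lowest array was wild-type array 5.

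The fatty acid branch had the lowest median difference of the 4 groups, -0.25, with all 7 measured genes lower in the knock-out, from -0.32 to -0.17. Acly, which supplies cytosolic acetyl-CoA to both pathways, was at 8.07, 7.82, 7.83, 8.22 and 8.22 in the knock-out and at 8.36, 8.32, 8.30, 8.22 and 8.10 in the wild type. All knock-out arrays were below the wild-type mean, and the difference was -0.23 ± 0.10 (SE; limma adjusted p = 0.829). Elovl6, the elongase that makes stearate from palmitate, was at 8.10, 7.30, 7.60, 7.88 and 8.20 in the knock-out and at 8.12, 8.11, 8.21, 8.12 and 8.13 in the wild type. The wild-type arrays were close together, from 8.11 to 8.21, knock-out arrays 1 to 4 were below all of them, and array 5 was within their range. Knock-out array 1 (8.104) was almost level with the lowest wild-type array (8.106). The means were 7.82 ± 0.37 and 8.14 ± 0.039 (SD, n = 5 each). They differed by -0.32 (limma adjusted p = 0.831, exact two-sided permutation p = 0.0873).

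Fads2, the desaturase that begins the synthesis of long polyunsaturated fatty acids, was at 9.64, 8.86, 9.37, 9.16 and 9.27 in the knock-out and at 9.62, 9.69, 9.63, 9.58 and 9.23 in the wild type. Wild-type array 5 lay between knock-out arrays 4 and 5, and the difference was -0.29 ± 0.13 (SE; limma adjusted p = 0.831). Fads1, which lies beside Fads2 on chromosome 19 and encodes the next desaturase, differed by -0.25. Scd1, the desaturase that makes oleate, was at 9.40, 8.57, 9.08, 9.15 and 9.19 in the knock-out and at 9.51, 9.24, 9.41, 9.29 and 9.29 in the wild type, a difference of -0.27 ± 0.13 (SE). Knock-out arrays 2 to 5 of Scd1 were below every wild-type array, as they were for Fads1 and Acaca. For Acaca, knock-out array 4 (6.678) was almost level with wild-type array 4 (6.681). For all 3 genes the groups did not overlap once knock-out array 1 was left out, when the share of all genes without overlap was 2.66%, up from 0.987%.

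Acaca, the acetyl-CoA carboxylase gene, differed by -0.21, and Fasn, the fatty acid synthase gene, by -0.17. Acaca, Fasn, Acly and Srebf1 lie on chromosome 11, which also holds Zbtb4, and the 29 genes lie on 14 chromosomes in all.

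**Figure D2:**
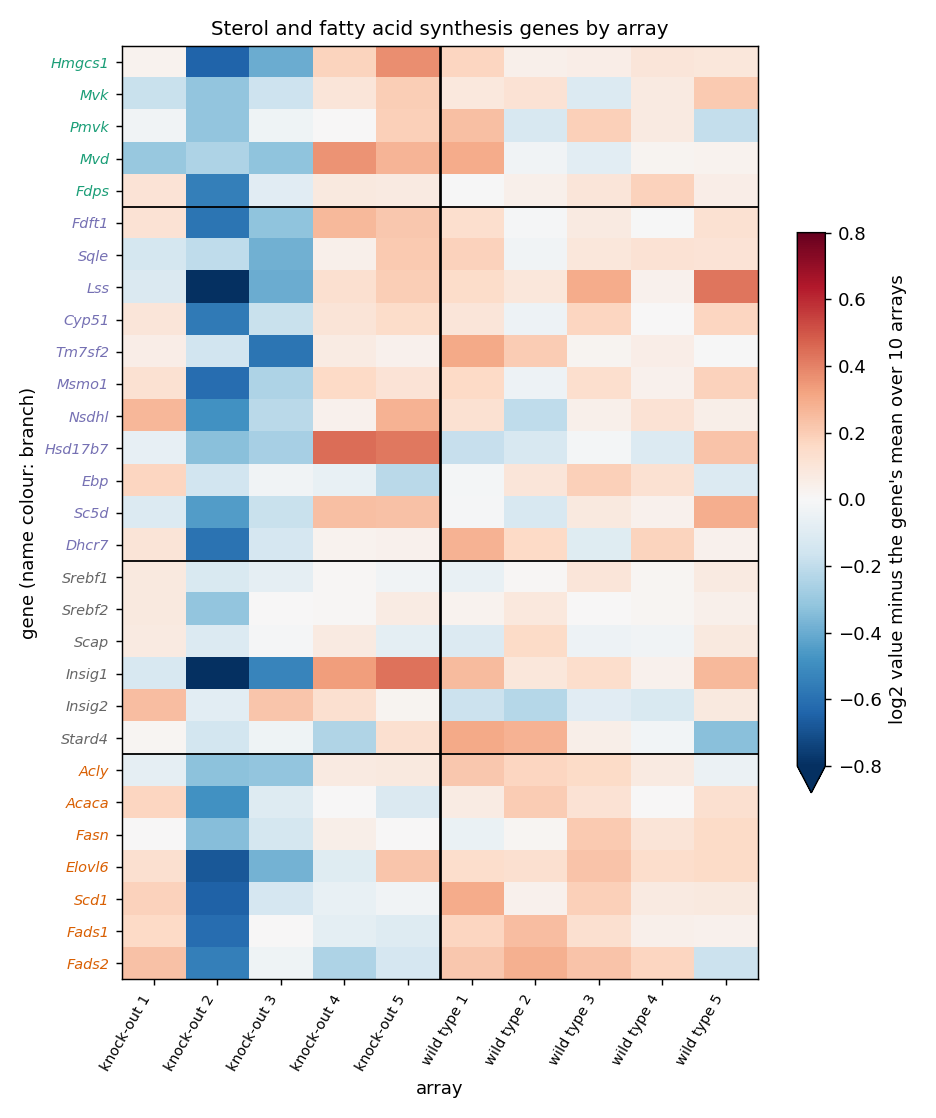
Log2 value of each gene on each array minus that gene's mean over the 10 arrays (colour), with genes in rows by branch and arrays in columns by genotype. Knock-out array 2 is the lowest of the 10 arrays for 22 of the 29 genes, knock-out array 3 is low for most sterol genes, and knock-out arrays 4 and 5 are high for many of them.

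The arrays of the knock-out differed among themselves by more than the genotypes did. The mean deviation of the 29 genes from their means over all arrays was 0.045, -0.42, -0.19, 0.073 and 0.11 on knock-out arrays 1 to 5 and 0.11, 0.051, 0.088, 0.052 and 0.076 on wild-type arrays 1 to 5. Knock-out array 2 was below the mean of its own genotype for all 29 genes, against 52.3% of all genes, and was the lowest of the 10 arrays for 22 of 29, against 11.5% of all genes. It was below every wild-type array for 26 of the 29 genes, against 19.6% of all genes, and knock-out array 3 was so for 22, against 19.1%. Among the 12352 genes whose mean lay above the highest array median, knock-out array 2 was the lowest of the 10 for 14.7%. In those genes it was below every wild-type array for 25.2%, and knock-out array 3 for 23.5%. Knock-out array 2 had the highest Zbtb4 value of its genotype, 5.76, and knock-out array 3 the lowest, 5.04. Xist and Y-linked genes put knock-out array 2 (Xist at 10.28) with arrays 4 and 5 (10.12 and 10.28), and Eif2s3y put array 3 (6.83) with array 1 (7.18). The part of sex in the pattern over arrays was not tested.

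Knock-out arrays 2 and 3 were low for sterol and fatty acid genes alike, while arrays 1, 4 and 5 were not ordered alike. On arrays 2 and 3, 0 of the 16 genes of both sterol branches and 0 of the 7 fatty acid genes were above the wild-type mean. Of the sterol genes, 6 were above it on knock-out array 1, 10 on array 4 and 11 on array 5. Of the fatty acid genes, 4 were above it on array 1, 0 on array 4 and 1 on array 5. The mean deviation of the squalene to cholesterol genes was 0.13 and 0.15 on knock-out arrays 4 and 5, within or just above the wild-type range of -0.0034 to 0.14, and that of the fatty acid genes was -0.051 and -0.011, below the wild-type range of 0.048 to 0.18. Whether the branches differ in their response to the genotype was not tested.

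**Figure D3:**
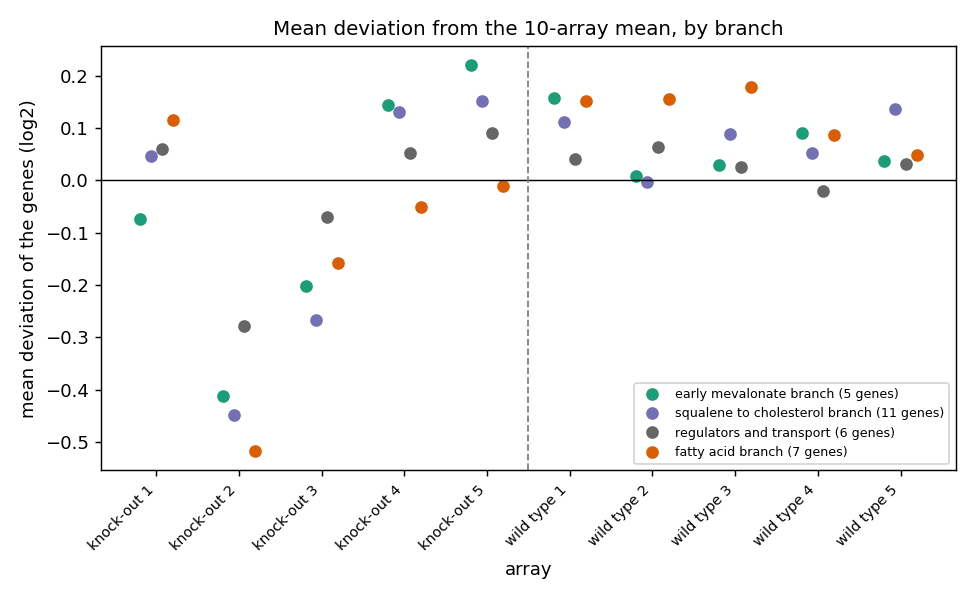
Mean deviation of the genes of each branch from their 10-array means (vertical axis, log2) on each array. All 4 branches have their lowest point at knock-out array 2. At knock-out arrays 4 and 5 the 2 sterol branches are above 0 while the fatty acid branch is at -0.051 and -0.011.

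The spread between arrays was wider in the knock-out for most of these genes. The SD over 5 arrays was larger in the knock-out for 26 of 29 genes, or 89.7%, against 55.7% of all genes. The median SD was 0.28 in the knock-out and 0.104 in the wild type, a ratio of 2.71, while over all genes the medians were 0.16 and 0.147, a ratio of 1.08. Among genes whose mean lay above the highest array median, the SD was larger in the knock-out for 59.1%, with a ratio of 1.14. Without knock-out array 2 the SD was still larger in the knock-out for 23 of 29 genes, with a median of 0.19. The exceptions with all arrays were Pmvk, Scap and Stard4. Insig1 (0.565 against 0.099), Hmgcs1 (0.42 against 0.052) and Elovl6 (0.37 against 0.039) had wide knock-out and narrow wild-type spreads. Of the regulators, Srebf1 and Scap had SDs of 0.078 and 0.084 in the knock-out, below the median of all genes.

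**Figure D4:**
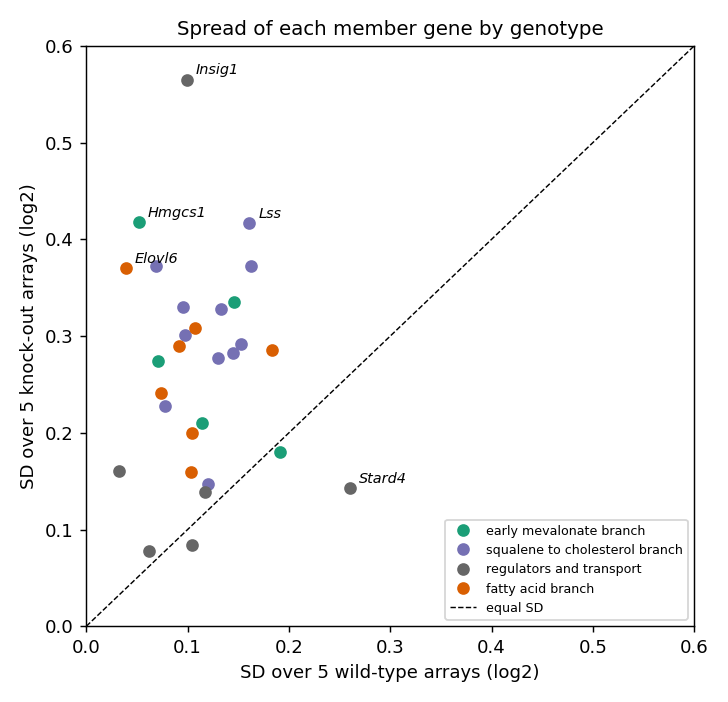
SD of each gene's log2 values over the 5 wild-type arrays (horizontal axis) and the 5 knock-out arrays (vertical axis), coloured by branch, with a dashed line where both are equal. Points lie above the line for 26 of the 29 genes, with Insig1 highest at 0.565 in the knock-out.

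Leaving out knock-out array 2 brought the median difference of the 29 genes from -0.16 to -0.085, with 23 genes lower and 6 higher. Since this array was below the mean of its genotype for all 29 genes, leaving it out had to raise every difference. The difference moved by over 1.5 times or turned its sign for 23 of 29 genes. Hmgcs1 came to -0.045, Fdps to -0.035, Cyp51 to -0.037, Msmo1 to -0.058 and Insig1 to -0.13. Fdft1 (0.0068), Nsdhl (0.066), Srebf2 (0.0058) and Scap (0.0063) turned. Lss stayed lower at -0.25, Sqle at -0.16, Tm7sf2 at -0.22 and Acly at -0.17, and Insig2 stayed higher at 0.26. The fatty acid branch kept 7 of 7 lower means, with a median of -0.14, while the medians of the early mevalonate and squalene to cholesterol branches came to -0.044 and -0.058. Of the 5 genes at an unadjusted p under 0.05, only Insig2 (limma adjusted p = 0.861) was still there without this array, where 5.73% of all genes were at that level. The same count was 6 without knock-out array 1 (7.82% of all genes) or 5 (5.36%), 2 without knock-out array 4 (5.83%) and 3 without wild-type array 5 (7.1%). It was 1 without knock-out array 3 (6.01%) or any of wild-type arrays 1 to 4 (4.86% to 5.67%).

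**Figure D5:**
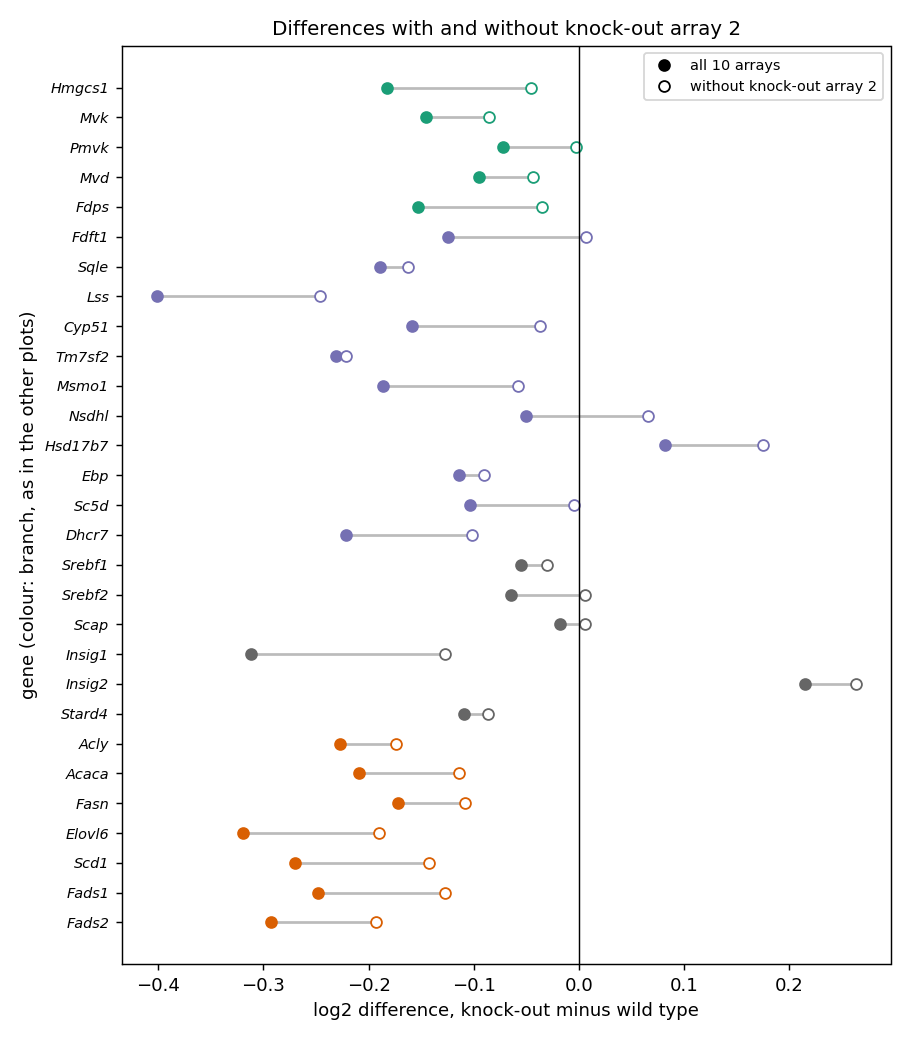
Log2 difference between genotypes for each gene with all 10 arrays (filled) and without knock-out array 2 (open), coloured by branch. Every open point lies to the right of its filled point, since array 2 was below the knock-out mean for every gene. Most open points lie nearer to 0, as for Hmgcs1 (-0.18 to -0.045), while those of Insig2 and Hsd17b7 lie further from it.

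Genes of the same pathway outside the list showed no common direction. Of 38 listed genes of sterol uptake and efflux, SREBP processing and related lipid steps, 30 were measured, of which 13 had a higher and 17 a lower knock-out mean, with a median log2 difference of -0.047. None had an adjusted p under 0.05. At an unadjusted p under 0.05 there were 4 (13.3%), against 5.98% of all genes. All 4 were lower in the knock-out, a side that held 2.73% of all genes. Acss2, the cytosolic acetyl-CoA synthetase gene and a known SREBP target, was at 4.58, 4.32, 4.67, 4.39 and 5.10 in the knock-out and at 4.93, 5.25, 5.12, 4.91 and 4.92 in the wild type. Knock-out array 5 alone reached into the wild-type range, and the difference was -0.42 ± 0.13 (SE; limma adjusted p = 0.821, exact two-sided permutation p = 0.0317). Mbtps2, the protease that frees SREBP from the membrane, differed by -0.21, Scarb1, the receptor for high-density lipoprotein, by -0.22 and Pnpla3, a lipid droplet enzyme gene, by -0.17. Pnpla3 was dim, from 3.24 to 3.57, below every array median on every array. The mean deviation of these 30 genes was lowest on knock-out array 3 (-0.097), with array 2 at -0.070, and ran from -0.00050 to 0.059 in the wild type.

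Cultures of fibroblasts can hold other cells, and in bulk RNA fewer cells of a type and less RNA per cell cannot be told apart. Adipocytes make much fatty acid, and 10 of 12 of their listed markers were measured, with a mean level from 3.69 to 3.87 in the knock-out and from 3.69 to 3.96 in the wild type. Of these 10 markers, Adipoq, Cidec, Lep and Retn were below every array median on every array. Plin1, Pparg, Lpl and Slc2a4 were above every array median on every array, and Fabp4 and Plin4 lay on either side. On each array, 5 or 6 of the 10 were above the highest array median. The markers' mean deviation on knock-out array 2 was 0.0042. Macrophage markers (10 of 10 measured) had a mean level of 4.81, 4.45, 5.48, 4.77 and 4.05 on knock-out arrays 1 to 5, while wild-type arrays ran from 4.34 to 4.71. Of them, 9 had a higher and 1 a lower knock-out mean, with a median difference of 0.20, and none had an unadjusted p under 0.05. Genes of dividing cells (11 of 12 measured) all had lower knock-out means, with a median difference of -0.20. Among these 11 genes, 2 (18.2%) had an unadjusted p under 0.05, against 5.98% of all genes. The mean deviation of the 11 genes was 0.18, 0.00090, -0.10, -0.41 and -0.17 on knock-out arrays 1 to 5 and 0.12, 0.14, 0.21, 0.22 and -0.18 on wild-type arrays 1 to 5. Knock-out array 4 was lowest for them, and wild-type array 5 was the lowest of its genotype for them and for the fatty acid branch. Endothelial markers (10 of 10 measured, 8 with a higher knock-out mean) ran from 3.60 to 3.80 in the knock-out and from 3.45 to 3.70 in the wild type. Of these, 2 (20%) had an unadjusted p under 0.05, against 5.98% of all genes, and these 2 were higher in the knock-out. Keratinocyte markers (9 of 10) ran from 4.27 to 4.50 in the knock-out and from 4.17 to 4.36 in the wild type. What part the macrophage and dividing-cell signals have in the differences described was not tested.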

How the data were processed

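The table holds the authors' deposited log2 values, as judged from their range (0.92 to 13.42), for 41345 probe sets on 10 arrays. The summarisation, background correction and normalization are not given in the sources used here, and a normalization that equalises arrays hides a change in total RNA. The platform annotation gave 23521 probe sets 1 symbol, 1814 several and 16010 none, and only the first kind was used. Symbols were checked through Entrez identifiers against RefSeq (23328 found, 0 changed). Knock-out minus wild type was fitted for 22180 genes with lmFit and eBayes in limma 3.58.1 (R 4.3.3), on the values as they stand, and adjusted by Benjamini-Hochberg over all genes (threshold 0.05). The exact two-sided permutation test of single genes used all 252 assignments of arrays. The scripts were tested on simulated data. The genes and lists were chosen with earlier results of these data known. Arrays are given singly for the 3 genes of each branch with the smallest p-values, for genes at an unadjusted p under 0.05 and for Srebf1, Srebf2, Scap, the Insig genes and Scd1, and of the other pathway genes the 4 with the smallest p-values are named. Promoters come from RefSeq (GRCm38.p6). The alternatives were quantile normalization, median centring, leaving out the dimmest 40% of genes, the mean of probe sets, eBayes with trend and robust, array weights, a replicate block, the mean Y-linked level as a covariate, a threshold of 0.1, means in place of medians and leaving out each array.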

Additional observations from a re-analysis of the deposited data

Results flagged for a closer look

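In 60 groups of 5 arrays (29 genes and their mean deviation in both genotypes), 5 held an array whose gap to its nearest neighbour exceeded Dixon's critical ratio of 0.71, where chance flags about 1 in 20. Srebf2 on knock-out array 2 was at 8.56, with the next array at 8.88 and a gap of 0.809 of the range. In the wild type, Mvd was high on array 1 (7.32, next 7.05), Nsdhl low on array 2 (7.998, next 8.24), Elovl6 high on array 3 (8.205, next 8.13) and Fads2 low on array 5 (9.23, next 9.58). The mean deviation of the 29 genes on knock-out array 2, -0.42, did not exceed the ratio, since knock-out array 3 was also low.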

How the results depend on the processing

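Of the 29 genes, 24 kept their sign under every alternative run, and 8 of 523 comparisons turned a sign, all in genes that did not pass. These were Fdft1 (0.0068), Nsdhl (0.066), Srebf2 (0.0058) and Scap (0.0063) without knock-out array 2, Hsd17b7 without knock-out array 4 (-0.019) or 5 (-0.013), and Scap without wild-type array 2 (0.018) or under quantile normalization (0.0092). With single arrays left out, these differences ran from -0.205 to 0.0068 for Fdft1, -0.126 to 0.066 for Nsdhl, -0.019 to 0.176 for Hsd17b7, -0.092 to 0.0058 for Srebf2 and -0.048 to 0.018 for Scap. No member was called under any alternative with limma, and over all genes the count was 0, or 1 without wild-type array 5. With single arrays left out, the calls over all genes ran from 0 to 1, the members at an unadjusted p under 0.05 from 1 to 6 (4.86% to 7.82% of all genes), and the members with groups that did not overlap from 0 to 3. The 3 were Acaca, Fads1 and Scd1, without knock-out array 1, when 2.66% of all genes did not overlap, and over all 10 omissions that share ran from 1.53% to 2.66%. Members at an unadjusted p under 0.05 numbered 3 under quantile normalization (5.67% of all genes) and 8 under eBayes with trend and robust (5.84%). Without the dimmest 40% of genes, fewer genes were tested, and 800 were at an unadjusted p under 0.05 and 134 had groups that did not overlap. Beyond normalization, filter and probe set, the alternatives for members at an unadjusted p under 0.05 or without overlap were chosen after seeing the data, as were those for the array pattern. The median over the 29 genes was -0.21 to -0.085 when an array was omitted and -0.17 to -0.15 otherwise. Knock-out array 2 was lowest of all arrays for 21 genes under quantile normalization and 23 after median centring. Correlations of deviations between arrays of the same replicate number ran from -0.046 to 0.17, with 3 of 10 arrays nearest to their own number. In both genotypes, Y-linked Eif2s3y was high on arrays 1 and 3 and low on arrays 2, 4 and 5. Whether the replicate numbers pair the arrays is not given in the labels, and these values cannot decide it. With the replicate block the median was -0.16, 5 members had an unadjusted p under 0.05 and 0 genes were called. How bright a probe set must be to stand above background is not known here.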
